A study of Mus musculus with 6 samples.

Results

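The mRNAs of the alpha and beta tubulin isotypes were followed by direct RNA sequencing as male germ cells of the mouse pass from pachytene/diplotene (P/D) spermatocytes to round spermatids (RS). Members were the transcripts whose symbol in the table of poly(A) tails was Tuba1a, Tuba1b, Tuba1c, Tuba3a, Tuba3b, Tuba4a, Tuba8, Tubb4b, Tubb5 or Tubb3. The rule found 9 transcripts of 8 genes among 11517 annotated transcripts of 7097 genes. Tubb5 was listed only among the counts, at 0 reads in all 6 samples, where 3 reads, the limit that a count of 0 allows, would be between 6.32 and 12.3 CPM (counts per 1000000 reads of a sample). Tubb3 had no transcript in the tables and was not analysed here.

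Both cell types were sorted by DNA content and scatter from testes of adult wild-type C57BL/6J/B6 males. No sample carried an engineered allele or a treatment. By the paper's microscopy the sorted P/D fraction was much less pure than the RS fraction. The P/D values given here are therefore those of a mixed fraction. There were 3 samples of P/D spermatocytes and 3 of RS, each a pool of mRNA from 3 mice, so the spread between samples is a spread between pools. According to the methods each mouse gave both cell types, so the P/D and RS samples share animals, while the tests treat the 6 samples as independent. Whether samples of the same number hold the same mice is not given in the sources used here. The 3 P/D samples made up 1 multiplexed nanopore library and the 3 RS samples another, and cell type and library cannot be told apart in any comparison given here. The samples held between 244004 and 474688 reads with a tail estimate, of which tubulins took 1.13 to 1.18% in P/D spermatocytes and 0.628 to 0.677% in RS. Markers of pachytene and diplotene cells, 6 of 6 of which had reads, summed to 2414–2864 CPM in P/D samples and 1101–1277 CPM in RS. Those of round spermatids, again 6 of 6 with reads, summed to 140–217 CPM and 1890–2053 CPM, in the same order. Markers listed for elongating spermatids (protamines, transition proteins, Odf1 and Smcp), of which 6 of 6 had reads, moved the same way, from 1629–2160 to 20859–25809 CPM. The paper states that RS already transcribe these mRNAs, so their sum does not set elongating cells apart from RS. The part of elongating cells in the results was not tested. Spermatogonia, Sertoli and Leydig markers had at most 7 reads in any sample, with none for Zbtb16, Kit, Stra8, Sox9, Wt1, Star and Cyp17a1. No marker of peritubular, vascular or macrophage cells had a read. A marker without reads may have had no transcript among the counts, which was not told apart from a count of 0.

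Microtubules are polymers of dimers of alpha and beta tubulin, each encoded by a small family of genes called isotypes. The isotypes differ most in a short acidic tail at the carboxy terminus, where enzymes add or remove glutamate, glycine and tyrosine residues. Meiotic cells build spindles from these dimers, and spermatids build the manchette, which shapes the nucleus, and the axoneme of the flagellum. Tuba3a and Tuba3b are alpha isotypes known for expression in the testis, Tubb4b is a beta isotype of cilia and flagella, Tuba8 is found in testis and muscle, and Tuba1a, Tuba1b and Tuba1c are isotypes of dividing and neuronal cells. A poly(A) tail is added to an mRNA when its 3′ end is cut behind a signal hexamer, usually AATAAA or ATTAAA, and can later be shortened or extended.

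The ends of the abundant mRNAs are shown because a direct RNA read starts at the tail and runs into this sequence, which is also where near-identical isotypes can be told apart. The last 30 bases of each transcript, all in the final exon and at the end of the 3′ UTR (GRCm38, GENCODE annotation), are given in the 5′ to 3′ direction of the mRNA with the signal hexamer in capitals.
Tuba3a, chr6:125278274-125278303, minus strand: aaaggatatattATTAAAatttctagactg
Tuba3b, chr6:145621450-145621479, plus strand: tgtttacttATTAAAgtttctaaatggaga
Tubb4b, chr2:25222160-25222189, minus strand: taccaccATTAAAgcaattcatagtgtgtg
Tuba8, chr6:121226825-121226854, plus strand: aagacaaaattctgtAATAAAagttatgcg
In these windows the 3 abundant isotypes carried ATTAAA and Tuba8 carried AATAAA. The 3′ UTRs of Tuba3a and Tuba3b also held 1 AATAAA each, before the bases shown, and that of Tubb4b held none. Over 11344 transcripts, ATTAAA was present in the last 100 bases of 20.6% and AATAAA in those of 62.9%. Matches were sought on the mRNA strand only, and a match is a description of the letters.

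The same members had short 3′ UTRs. Tuba3a had 84 nt, Tuba3b 92 nt and Tubb4b 148 nt, against a median of 595 nt over 10231 coding transcripts, of which 9.39% had at most 92 nt and 17.0% at most 148 nt. Tuba8 had 775 nt. The motifs TTTTAT or TTTTAAT, forms of the cytoplasmic polyadenylation element, were found in the last 100 bases of 15.5% of transcripts, and neither was found in the 3′ UTR of Tuba3a, Tuba3b, Tubb4b or Tuba8.

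Tuba3a (ENSMUSG00000067702, 5 exons) and Tuba3b (ENSMUSG00000067338, 5 exons) both lie on chromosome 6, at chr6:125278274-125286042 and chr6:145615757-145621479. Their coding sequences of 1353 bases were 97.0% identical, with 41 edits, and their 3′ UTRs 83.7% identical, with 15 edits. The 60 coding bases that end each reading frame, with the stop codon in capitals, were the same in both, and they encode the acidic tail named above.
Tuba3a and Tuba3b: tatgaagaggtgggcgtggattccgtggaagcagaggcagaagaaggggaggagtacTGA
Tubb4b: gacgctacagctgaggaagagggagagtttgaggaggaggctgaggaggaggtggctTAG
Tuba8: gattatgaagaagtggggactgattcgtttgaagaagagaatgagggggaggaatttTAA
Of all member reads, 1 was placed on more than 1 transcript, out of 4727 such reads among all transcripts. How often sequencing errors sent a read of Tuba3a to Tuba3b, or between Tuba1b and Tuba1c with their 98.0% identical coding sequences, was not tested, so the values of each gene of such a pair are uncertain to that extent.

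Tuba3b and Tuba3a led the tubulin mRNAs in P/D spermatocytes, and both fell in RS. In direct RNA sequencing 1 read comes from 1 molecule, so these values were not divided by length unless stated. Tuba3b stood at 5029, 4798 and 5119 CPM in the 3 P/D samples and at 2230, 2050 and 1918 CPM in RS. Tuba3a stood at 4090, 4135 and 4227 CPM in P/D spermatocytes and at 1993, 1805 and 1941 CPM in RS. For both transcripts every RS sample lay below every P/D sample. edgeR's quasi-likelihood test gave log2 fold changes of −1.23 (SE 0.09, adjusted p = 7.04e-16) for Tuba3b and −1.08 (SE 0.09, adjusted p = 4.33e-14) for Tuba3a. In order of level over all transcripts, Tuba3b was number 6 in P/D spermatocytes and 19 in RS, and Tuba3a 8 and 23. CPM is a share of the reads of a sample. In such bulk samples fewer molecules per cell, fewer cells of a type and more reads of other mRNAs cannot be told apart.

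Tubb4b, at chr2:25222160-25224702 (ENSMUSG00000036752, 4 exons), was at a like level in both cell types. It stood at 2234, 2311 and 2340 CPM in P/D spermatocytes and at 2343, 2223 and 2447 CPM in RS, and the groups overlapped. Its log2 fold change was 0.07 (SE 0.09, 95% interval −0.11 to 0.25, edgeR adjusted p = 0.521). When the fit was limited to transcripts reaching 10 reads in each of the 6 samples it was 0.26 (edgeR adjusted p = 0.0124). It moved from rank 31 to rank 13, and in each RS sample it was the most abundant tubulin mRNA, whereas in each P/D sample Tuba3b was.

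**Figure D1:**
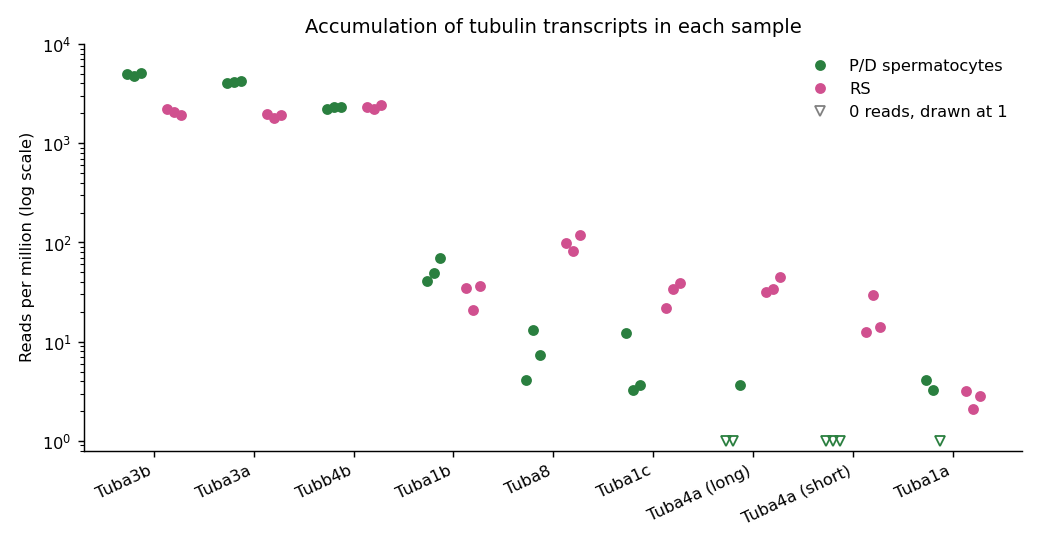
CPM (vertical log axis) of the 9 tubulin transcripts in each of the 3 P/D (green) and 3 RS (pink) samples, 1 point per sample, with samples at 0 reads drawn as open triangles at 1. Tuba3b and Tuba3a drop from 4090–5119 to 1805–2230 CPM while Tubb4b stays between 2223 and 2447.

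Tuba8 and Tuba4a appeared in RS from a few reads in P/D spermatocytes. Tuba8 counts were 1, 4 and 2 in the P/D and 31, 39 and 42 in the RS samples, or 8.18 ± 4.54 and 99.3 ± 18.0 CPM (SD, n = 3). Its log2 fold change was 3.51 (SE 0.42, edgeR adjusted p = 1.36e-09). Tuba8 passed the filter on counts only through the RS samples, where it was high, so this p-value is not independent support. Tuba4a, an alpha isotype encoded without the terminal tyrosine of most others, was split over 2 transcripts that each missed the filter on counts. The longer one had 10, 16 and 16 reads in RS and 0, 0 and 1 in P/D spermatocytes, and counts of the shorter one were 4, 14 and 5 in RS and 0 in each P/D sample. Over both, 65 RS reads against 1 P/D read gave a ratio of 46.5 per read sequenced, with an exact 95% counting interval of 8.06 to 1866. The level of the shorter transcript was at least 5.49-fold higher in RS, taking 3 reads over the P/D samples as the floor. With the counts of each gene summed, Tuba4a was called higher (edgeR adjusted p = 3.35e-09), again after passing the filter only through RS. That fit called 34.8% of all genes higher and 31.2% lower. No RS sample of Tuba8 or of either Tuba4a transcript overlapped a P/D sample.

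The remaining alpha isotypes were scarce. Tuba1b counts were 10, 15 and 19 in the P/D and 11, 10 and 13 in the RS samples, which corresponded to 41.0, 49.0 and 70.0 CPM against 34.7, 21.1 and 36.5 CPM. Its log2 fold change of −0.80 (SE 0.35, edgeR adjusted p = 0.0425) did not pass with DESeq2 (adjusted p = 0.210). It also missed the threshold in edgeR without P/D sample 2 (adjusted p = 0.0626), P/D sample 3 (0.234), RS sample 1 (0.0542), RS sample 2 (0.286) or RS sample 3 (0.0521). The log2 fold change ran from −0.98 to −0.49 over these fits and the one without P/D sample 1. Tuba1c counts were 3, 1 and 1 in the P/D and 7, 16 and 14 in the RS samples, and it missed the filter on counts. Tuba1a had at most 1 read in every sample.

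Of the 5 member transcripts tested for accumulation, 1 (Tuba8) was higher and 3 (Tuba3b, Tuba3a and Tuba1b) were lower in RS. Over all 6005 transcripts tested, 32.6% were higher and 30.8% lower, and the median log2 fold change was −0.03, against −0.80 for the members. That member median is the value of Tuba1b alone. It leaves out Tuba1c and both Tuba4a transcripts, which missed the filter and whose RS samples all lay above their P/D samples. CPM of every RS sample lay below every P/D sample in 34.2% of all transcripts tested and above in 32.9%.

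The make-up of the tubulin pool differed in part between the cell types. All beta tubulin reads of the members came from Tubb4b, and Tubb6, a beta isotype outside the members, was not counted. Among the members, alpha tubulin reads outnumbered beta tubulin reads 4.01 ± 0.109 to 1 in P/D spermatocytes and 1.80 ± 0.106 to 1 in RS (SD, n = 3), with no overlap between the groups. The two-sided exact permutation test gave p = 0.1, the smallest that 3 samples against 3 allow. Divided by transcript length, the ratio was 3.90 ± 0.101 and 1.73 ± 0.101. Summed alpha tubulin was 9204 ± 216 CPM in P/D spermatocytes and 4199 ± 197 CPM in RS (exact p = 0.1), while Tubb4b, the only beta isotype of the members with reads, overlapped between the groups (exact p = 0.6). Tuba3a and Tuba3b accounted for 99.2 ± 0.115% of alpha tubulin in P/D spermatocytes and 94.7 ± 0.854% in RS, by reads. The share of Tuba3a alone overlapped between the groups (45.1 ± 0.731% and 45.6 ± 1.41%, exact p = 0.7), and that of Tuba3b was 54.1 ± 0.749% and 49.2 ± 2.21% (exact p = 0.1). Tuba8 went from 0.0893 ± 0.0512% to 2.37 ± 0.442% and Tuba4a from 0.0130 ± 0.0226% to 1.33 ± 0.293% of alpha tubulin reads (both exact p = 0.1). Within the Tuba3 pair, the share of Tuba3a was 45.5 ± 0.743% before the transition to RS and 48.1 ± 1.90% after it.

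The order of the levels was clear in P/D spermatocytes and less so in RS. In P/D samples the ranges of Tuba3b (4798–5119 CPM), Tuba3a (4090–4227 CPM), Tubb4b (2234–2340 CPM) and Tuba1b (41.0–70.0 CPM) were apart from each other, while those of Tuba8 and Tuba1c overlapped. In RS, Tubb4b (2223–2447 CPM) and Tuba3b (1918–2230 CPM) overlapped slightly between samples, as did Tuba3b and Tuba3a (1805–1993 CPM). Tuba8 (82.2–118 CPM) was well under all 3 and above Tuba1c and Tuba1b, which overlapped. Per kilobase of transcript the P/D ranges of Tuba3b and Tuba3a overlapped too, at 2703–2884 and 2710–2801 CPM per kilobase.

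Poly(A) tails divided the isotypes in another way. Tubb4b tails lengthened by 47.4 nt, near the median of well-covered mRNAs, while the differences of Tuba3a (9.35 nt) and Tuba3b (−6.70 nt) were small and did not pass limma's test. In P/D spermatocytes the tails of the 3 mRNAs overlapped, with Tubb4b means of 102, 111 and 111 nt, Tuba3a means of 109.6, 106.8 and 112.6 nt, and Tuba3b means of 112.1, 108.0 and 110.6 nt. In RS, Tubb4b reached 155, 156 and 155 nt. Tuba3a stood at 120.4, 118.3 and 118.3 nt there, and Tuba3b at 102.2, 103.6 and 104.8 nt. The RS means of Tubb4b and of Tuba3a all lay above their P/D means, and those of Tuba3b all lay below.

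limma gave a difference of 47.4 nt (SE 5.61, adjusted p = 0.000861) for Tubb4b. For Tuba3a the difference was 9.35 nt (SE 5.27, 95% interval −3.49 to 22.2 nt, limma adjusted p = 0.182) and for Tuba3b −6.70 nt (SE 5.19, 95% interval −19.3 to 5.95 nt, limma adjusted p = 0.318), so neither passed. limma's standard error draws on all transcripts, many of which rest on few reads. With samples weighted by their reads, Tuba3a passed as longer (limma adjusted p = 0.0242) and Tuba3b did not (0.0711), where 57.2% of all transcripts were called longer and 1.9% shorter. By the methods' t-test, which uses each transcript's own spread, Tuba3a was longer (adjusted p = 0.0194 over all transcripts) and Tuba3b shorter (adjusted p = 0.0250), with n = 3 samples of each cell type, and 46.7% and 1.14% of all transcripts were called in these directions. Whether the small shifts of Tuba3a and Tuba3b are called thus depends on the test.

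**Figure D2:**
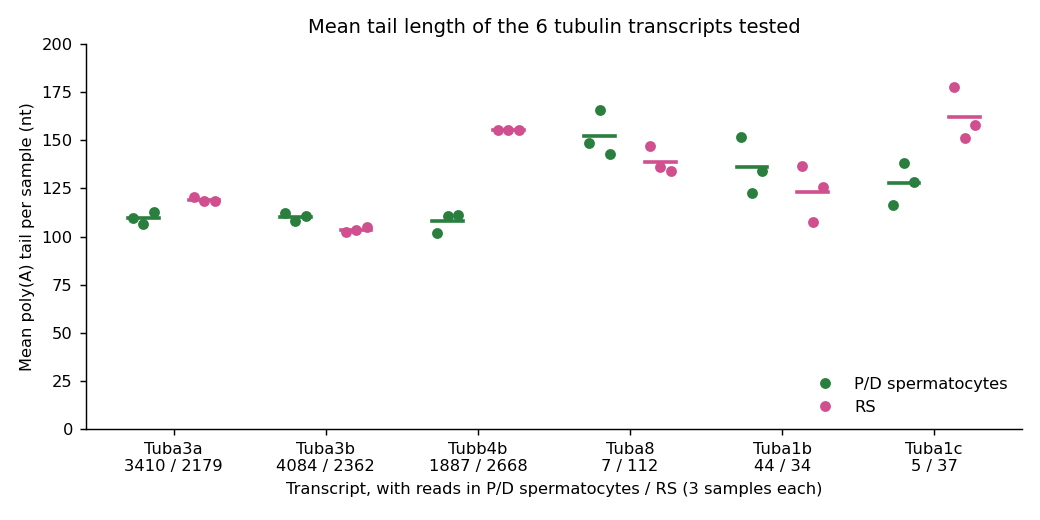
Mean poly(A) tail in nt (vertical axis, from 0) of the 6 tubulin transcripts tested, 1 point per sample with bars at the mean of 3 samples, P/D spermatocytes in green and RS in pink, and pooled read numbers under each name. Tubb4b moves from 102–111 to 155–156 nt, whereas Tuba3a and Tuba3b stay between 102 and 120.4 nt in both cell types.

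The scarcer members gave wider values. Tuba1c means were 116, 138 and 128 nt in P/D spermatocytes and 178, 151 and 158 nt in RS, a difference of 34.5 nt (SE 9.62, limma adjusted p = 0.0230). The P/D means rested on 5 reads in all, and the call was lost when samples were weighted by reads (limma adjusted p = 0.0501), with the replicate number as a block (0.0709), without P/D sample 1 (0.0551) and without RS sample 1 (0.0612). It was also lost by the methods' t-test (adjusted p = 0.0551 over all transcripts, 3 samples of each cell type), and without RS sample 2 or 3 the transcript missed the filter on reads. Tuba8 means were 149, 166 and 143 nt, from 7 reads, and 147, 136 and 134 nt, a difference of −13.5 nt (SE 8.22, limma adjusted p = 0.210) between groups that overlapped. When any sample was left out it ran from −18.4 to −6.84 nt, the latter without P/D sample 2. Tuba1b means were 152, 123 and 134 nt and 136, 108 and 126 nt, a difference of −12.9 nt (SE 10.9, limma adjusted p = 0.356), also with overlap. It was −5.20 nt without P/D sample 1, −5.14 nt without RS sample 2, −19.7 nt without P/D sample 2 and −19.5 nt without RS sample 1. Tuba4a was not tested, and the RS means of its transcripts were 117 to 165 nt.

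Of the 6 members tested for tail length, 2 (Tubb4b and Tuba1c) were longer in RS and 0 shorter, while 54.2% of all 6990 transcripts tested were longer and 1.69% shorter. Without the adjustment, limma's p was under 0.05 for the same 2 and for no member in the shorter direction, and the methods' t-test at an unadjusted p of 0.05 or less called 3 longer (Tubb4b, Tuba1c and Tuba3a) and 1 shorter (Tuba3b), where 53.6% of all transcripts were longer and 1.92% shorter. The median difference over the members was 1.33 nt and over all transcripts 37.4 nt. That member median is the midpoint of Tuba3a and Tuba3b, and the values of Tuba8, Tuba1b and Tuba1c rest on few reads. Among the 773 transcripts covered by 50 or more reads in each sample, to which Tuba3a, Tuba3b and Tubb4b belong, 85.6% were longer, 1.29% shorter, and the median difference was 52.8 nt. Only 26 of these 773 transcripts (3.36%) had a smaller difference than Tuba3b and 71 (9.18%) a smaller one than Tuba3a. Tubb4b had 306 (39.6%) below it. RS means lay above all P/D means in 63.6% of all transcripts and below them in 2.72%.

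By rank of mean tail from the shortest, the 3 mRNAs were close together in P/D spermatocytes, at numbers 494 (Tubb4b), 519 (Tuba3a) and 523 (Tuba3b) of the 773. In RS they were at 373, 90 and 44.

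**Figure D3:**
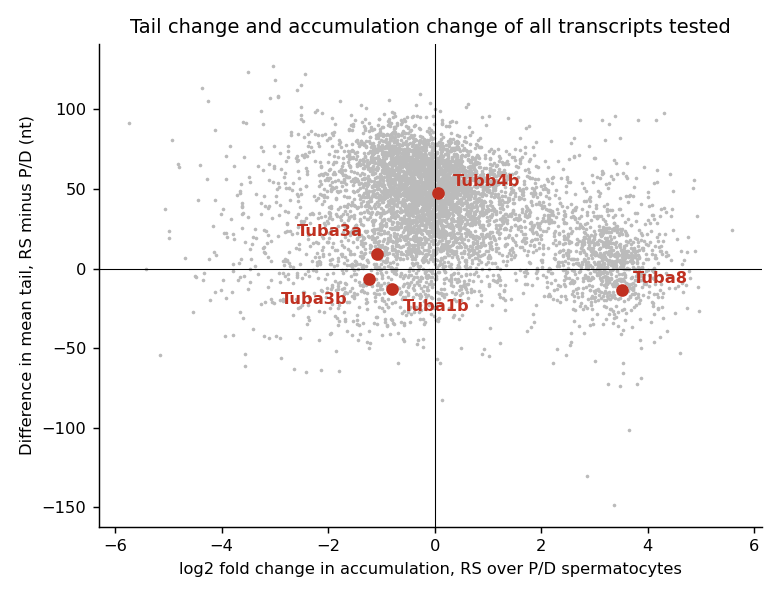
Difference in mean tail in nt (vertical axis) against log2 fold change in accumulation (horizontal axis), RS over P/D spermatocytes, for the 5916 transcripts tested for both (grey points) and the 5 tubulin members among them (red). Tubb4b lies at 47.4 nt and 0.07, Tuba3a at 9.35 nt and −1.08, and Tuba3b at −6.70 nt and −1.23.

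Since isotypes of a sample share 1 library and its processing, their tails were also compared within samples. Tuba3b tails were 2.50 and 1.21 nt longer and 2.00 nt shorter than those of Tuba3a in P/D samples 1, 2 and 3. They were 18.2, 14.7 and 13.5 nt shorter in the RS samples. The mean change in this difference was −16.0 nt. Tubb4b minus Tuba3a was −7.53, 3.90 and −1.15 nt in P/D spermatocytes and 35.0, 37.3 and 37.0 nt in RS, a change of 38.0 nt. Tubb4b minus Tuba3b was −10.02, 2.69 and 0.852 nt and then 53.3, 52.0 and 50.5 nt, a change of 54.1 nt. In all 3 pairs the P/D and RS values did not overlap, and the exact permutation test gave p = 0.1 for each and 0.1 after adjustment over the 3. The Tubb4b minus Tuba3b values follow from those of the other pairs, so the pairs are not separate results. How often pairs of other transcripts differ in this way was not computed. Pooling the reads of the Tuba3 pair, a value that an exchange of reads within the pair leaves as it is, gave a mean tail of 110.0 ± 2.25 nt for P/D spermatocytes and of 111 ± 0.576 nt for RS (SD, n = 3).

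The distributions behind these means were narrower in RS for all 3 abundant mRNAs. Spread, percentiles and class shares were not computed for other transcripts, so these values are not shown to be particular to tubulins. The study's classes were tails of 30 to 120 nt, termed the ~60-nt class, and of 120 to 210 nt, the ~150-nt class. The share of Tubb4b reads in the ~150-nt class was 33.2, 36.1 and 34.2% in P/D spermatocytes and 80.0, 78.2 and 75.8% in RS. For Tuba3a it was 37.3, 36.4 and 38.3% and then 48.8, 44.0 and 46.5%. For Tuba3b it was 39.0, 36.2 and 38.6% and then 27.9, 30.2 and 29.0%. RS minus P/D, the share in the ~150-nt class differed by 43.5 percentage points in Tubb4b, 9.11 in Tuba3a and −8.92 in Tuba3b, in each case without overlap between the groups (exact p = 0.1). In the ~60-nt class, Tubb4b went from 60.6 to 15.6%, Tuba3a from 56.4 to 51.1% and Tuba3b from 56.3 to 68.2%.

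At the short end the 3 distributions shifted the same way, and at the long end they did not. The 10th percentile of tail length went from 45.05 to 67.8 nt in Tuba3a, from 46.4 to 55.1 nt in Tuba3b and from 48.6 to 105 nt in Tubb4b. The 90th percentile went from 175.4 to 198.8 nt in Tubb4b. In Tuba3a it went from 176.2 to 169.6 nt and in Tuba3b from 175.9 to 157.4 nt. The standard deviation over reads, averaged over samples, differed by −10.3 nt in Tuba3a, −9.44 nt in Tuba3b and −13.0 nt in Tubb4b (each without overlap, exact p = 0.1). In bins of 10 nt the P/D profiles were flat around their top, and the fullest bin of a sample began anywhere from 70 to 100 nt for the 3 mRNAs. In RS the fullest bin was 120 to 130 nt in every sample for Tuba3a, began at 100, 90 and 80 nt for Tuba3b, and began at 150, 160 and 160 nt for Tubb4b.

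**Figure D4:**
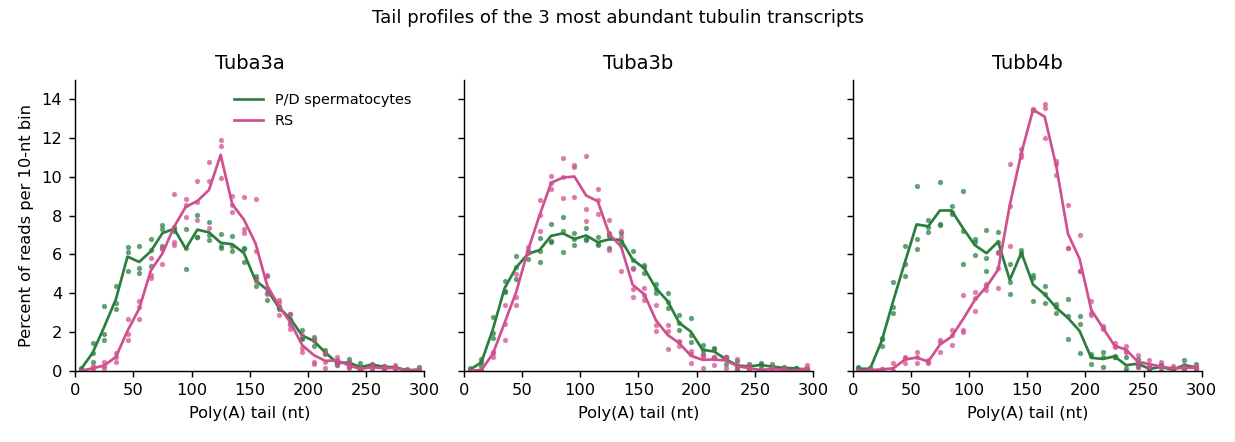
Percent of reads per 10-nt bin of tail length (horizontal axis, nt) for Tuba3a, Tuba3b and Tubb4b, with points for the 3 samples of a cell type and lines for their mean, P/D spermatocytes in green and RS in pink. The P/D profiles are broad and alike. The RS profile of Tuba3a is fullest at 120–130 nt, that of Tuba3b has a flat top between 80 and 110 nt, and that of Tubb4b lies highest between 150 and 170 nt.

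**Figure D5:**
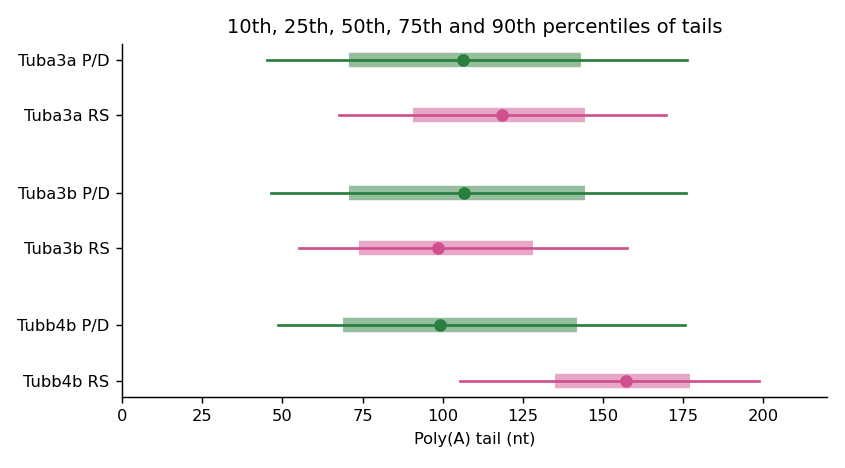
Tail length in nt (horizontal axis) at the 10th to 90th percentile (thin line), the 25th to 75th percentile (thick bar) and the median (point) of the 3 abundant tubulin mRNAs, each the mean over 3 samples, P/D spermatocytes in green and RS in pink. The 10th percentile is higher in RS for all 3, and the 90th is higher in RS only for Tubb4b.

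The transcripts of other genes whose mean tails were most like those of the Tuba3 pair were found by the root mean square difference over the 6 samples, among 770 well-covered transcripts. For Tuba3b these were Acyp1 (3.07 nt), Uqcrfs1 (4.39 nt) and Cfap298 (4.83 nt). For Tuba3a they were Cox7c (3.10 nt), Pdha2 (3.88 nt) and Ube2s (4.43 nt). Acyp1 averaged 109 nt for P/D spermatocytes and 102 nt for RS. Cox7c averaged 108 nt and 119.9 nt.

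Genes that act on tubulin were listed by role and counted transcript by transcript. Among the folding and assembly cofactors, which help tubulin to fold or to assemble into dimers, 9 transcripts were tested on each measure. The accumulation of 6 was lower, namely Tbcb and the prefoldin subunits Pfdn1, Pfdn2, Pfdn4, Pfdn5 and Pfdn6, and that of 2 was higher, Tbcc and Arl2. Pfdn2 had 21, 23 and 31 reads in P/D and 0, 3 and 4 in RS samples. Pfdn4 had 10, 17 and 13 and then 6, 2 and 1, and Arl2 had 10, 12 and 7 and then 20, 36 and 35. Pfdn2 and Pfdn4 passed the filter on counts only through P/D, and P/D samples of Arl2 alone did not meet it. Their calls are therefore not independent support. Among all transcripts 30.8% were lower and 32.6% higher. Tbcb, which binds alpha tubulin, stood at 227 ± 8.53 CPM in P/D spermatocytes and 101 ± 25.1 CPM in RS (log2 fold change −1.13, SE 0.20, edgeR adjusted p = 5.52e-06). Tbcc, the cofactor that completes the dimer, stood at 103 ± 7.50 and 170 ± 13.9 CPM (log2 fold change 0.78, SE 0.21, edgeR adjusted p = 0.00116). Tails of 4 were longer (Pfdn1, Pfdn5, Tbcb and Arl2) and of 0 shorter, against 54.2% and 1.69% of all transcripts, and without RS sample 1 the number shorter was 1. Pfdn1 lengthened by 76.3 nt (SE 6.94, limma adjusted p = 0.000497). The medians of this list were a log2 fold change of −0.85 and a tail difference of 22.0 nt.

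Tubulin-modifying enzymes had 35 transcripts tested for tail length, of which 23 were longer and 0 shorter, with a median of 53.1 nt, where 54.2% of all transcripts were longer. For accumulation 29 were tested, of which 9 were higher and 6 lower, with a median log2 fold change of 0.02, where 32.6% of all were higher and 30.8% lower. Leaving out any sample gave 19 to 22 longer and 0 to 2 shorter, the 2 without P/D sample 2, and with the replicate block 1 was shorter. Ttll10, a polyglycylase, had counts of 7, 6 and 5 in the P/D and 72, 84 and 75 in the RS samples. Its log2 fold change was 3.23 (SE 0.29, edgeR adjusted p = 5.18e-13). The polyglutamylase subunit Tpgs2 lengthened from 123 ± 1.94 to 185 ± 0.0391 nt (limma adjusted p = 0.00049). Ttll9, another glutamylase, had counts of 6, 22 and 5 in the P/D and 51, 61 and 71 in the RS samples. Its log2 fold change was 2.05 (SE 0.30, edgeR adjusted p = 1.24e-07). Ttll10 and Ttll9 passed the filter on counts only through RS, where they were high, so these p-values are not independent support. Agbl5, a deglutamylase, lengthened by 63.3 nt (SE 10.2, limma adjusted p = 0.00266) with no call on accumulation (log2 fold change −0.08, edgeR adjusted p = 0.730).

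For the gamma-tubulin ring complex and its recruitment factors, which nucleate microtubules, 9 of 10 transcripts tested were longer and 0 shorter, with a median of 41.5 nt, against 54.2% longer among all transcripts. Of 9 tested for accumulation, 0 were higher and 1 lower by edgeR, against 32.6% and 30.8% of all. The lower one was Haus4, a subunit of augmin (log2 fold change −0.46, SE 0.18, edgeR adjusted p = 0.0275). Cdk5rap2, a centrosomal recruiter of the ring complex, lengthened by 69.4 nt (SE 7.35, limma adjusted p = 0.000641).

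Severing, end-binding and destabilizing proteins had 6 of 18 transcripts longer and 0 shorter, with a median of 20.3 nt, where 54.2% of all transcripts were longer. Without RS sample 2 the number longer was 4 and without RS sample 3 it was 3, and without P/D sample 2, 1 was shorter. Of 14 transcripts of this list tested for accumulation, 3 were lower (Stmn1, Mapre1 and Fignl1), where 30.8% of all transcripts were lower. Calls in the higher direction are not reported here. The median log2 fold change of the list was 0.21, against −0.03 over all transcripts. Stmn1, encoding stathmin, which sequesters tubulin dimers, fell from 649.7 ± 39.8 to 178 ± 25.4 CPM (log2 fold change −1.81, SE 0.15, edgeR adjusted p = 3.7e-14). Its tail means were 113 ± 6.06 and 102 ± 7.84 nt (difference −11.2 nt, SE 6.86, limma adjusted p = 0.213). Among other tubulin genes, the beta isotype Tubb6 was higher in RS, with counts of 2, 1 and 0 in the P/D and 32, 44 and 46 in the RS samples. Tubb6 also passed the filter on counts only through RS. A transcript of delta tubulin, Tubd1, lengthened by 40.3 nt (SE 9.11, limma adjusted p = 0.0104). Arl2, Pfdn2, Pfdn4, Pfdn6, Mapre1, Fignl1, Tubb6 and Tubd1 were named after their values were seen.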

How the data were processed

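The authors basecalled direct RNA nanopore reads with Guppy, demultiplexed them, aligned them with minimap2 (2.20-r1061 per the labels) to GRCm38 transcripts of GENCODE and measured tails by Nanopolish. Files deposited by the authors hold unnormalized counts for each transcript and, as the other deposited measure, a tail length in nt for every read. For 12040 contigs the counts equalled the reads in the tail table. Annotation and sequences here came from GENCODE vM21 on the same build. Mean tails per sample were tested with limma 3.58.1 (10 or more reads in 2 or more replicates of either cell type, and a mean from 2 or more of both) and counts with edgeR 4.0.16 (TMM, filterByExpr, quasi-likelihood), adjusting over all transcripts by Benjamini-Hochberg at 0.05. Single values were compared by exact permutation tests. DESeq2 1.42.0, the methods' t-test, other read minimums, read weights, class limits, a replicate block and leaving out each sample were alternatives. Tests were also run on simulated data, with less spread over reads than the abundant members had in P/D spermatocytes. No result here rests on those simulated data. Members and gene lists were chosen with earlier results of these data known. Every member that passed a filter is described. From each list, up to 2 transcripts called highest and 2 lowest in accumulation (at least 50 reads in each sample of the higher cell type), and up to 2 with the largest called tail increase and decrease (at least 20 reads in every sample), were named, except for an item that is not reported here. Intervals on reads cover counting error only.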

Additional observations from a re-analysis of the deposited data

How the results depend on the processing

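The number of members with longer tails in RS, 2, was 1 with a minimum of 20 reads, with a minimum of 10 reads in each of the 6 samples and with the replicate block, and 1 to 2 when any sample was left out. The number with shorter tails, 0, was 1 by the methods' t-test, adjusted or not, and 0 when any sample was left out. The number higher in accumulation, 1, was 4 with no filter on counts, 2 with the counts of each gene summed and 1 to 3 when any sample was left out, and the number lower, 3, was 2 to 3 then. Differences in the ~150-nt class, in percentage points, were 10.5 for Tuba3a, −6.12 for Tuba3b and 33.0 for Tubb4b with the limits 120 to 180 nt, and 12.8, −4.75 and 39.0 with 100 to 210 nt. Leaving out any sample gave 7.92 to 10.3, −9.78 to −8.35 and 42.5 to 44.6. The changes of Tuba3b minus Tuba3a, Tubb4b minus Tuba3a and Tubb4b minus Tuba3b were −20.3, 45.8 and 66.1 nt with median tails, and −17.3 to −14.7, 35.1 to 40.8 and 50.1 to 56.5 nt when any sample was left out, a range chosen after seeing the data, as was that of the change in the alpha-to-beta ratio, −2.27 to −2.15. The cause of these differences was not tested. No result changed direction.

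The replicate numbers recur in both cell types, whose cells came from the same mice, but no source says that a number marks the same pool of mice. Tail deviations of same-numbered samples correlated at −0.0106 to 0.0771 and accumulation deviations at 0.0261 to 0.240. With the replicate block, Tubb4b stayed longer (limma adjusted p = 0.00848) and Tuba1c did not pass (0.0709). Tuba1b accumulation also missed the threshold with RLE normalization (edgeR adjusted p = 0.0592) and with at least 10 reads in every sample (0.110). Means of Tuba1c and Tuba8 in P/D spermatocytes, from 5 and 7 reads, are limited by depth.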
